A study of Homo sapiens with 6 samples.

Results

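The genes described here are 9 genes of MHC class I antigen presentation. They encode 3 heavy chains (HLA-B, HLA-C, HLA-E), the light chain B2M, the peptide transporter TAP1 and TAP2, the loading chaperone TAPBP (tapasin), and the aminopeptidases ERAP1 and ERAP2. They were taken by symbol from a deposited table of 58735 genes, and all 9 were found and passed the low-count filter with 13787 genes in all. Other class I genes that were not on this list are not analysed here, except as named.

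All libraries were made from ARPE-19 cells, a line established from human retinal pigment epithelium (RPE). NC is the control, labelled WT, with 3 libraries, and OE CD51 ICD is the same line overexpressing CD51-ICD, with 3 libraries. CD51 is integrin alpha V, the product of ITGAV. The sources used here do not give the vector, the length of expression, whether a line was clonal, or whether the replicates were grown apart. The p-values here thus rest on the spread between these libraries alone, which may be technical. In bulk RNA, fewer cells with a transcript and less of it per cell cannot be told apart.

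Class I molecules show peptides from inside the cell to CD8 T cells. Proteasomes cut cytosolic proteins, the TAP1-TAP2 dimer pumps the peptides into the endoplasmic reticulum (ER), ERAP1 and ERAP2 trim them, and tapasin with calreticulin and ERp57 helps a heavy chain paired with B2M to bind one. Nearly all nucleated cells make these proteins, interferon gamma raises most of them, in part through NLRC5, and RPE cells are known to raise class I under inflammation.

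In OE CD51 ICD the steps of this pathway did not move in 1 direction. The transporter genes TAP1 and TAP2 and the heavy chain gene HLA-E fell, the trimming enzymes ERAP1 and ERAP2 rose, and HLA-B, HLA-C, B2M and TAPBP did not pass the test. No change reached 2-fold. Of the 9 genes, 2 were higher and 3 lower with adjusted p-values under 0.05 (quasi-likelihood test of edgeR, adjusted over all genes), where 51% of all tested genes were called, 25.2% higher and 25.8% lower. The share of the 9 genes called, 55.6%, is near that background. With each library's trend with GC content removed, an alternative chosen after seeing the data, 8 of the 9 were called, against 50.1% of all genes. Without that removal, the median log2 fold change of the 9 genes was 0.09, against 0.01 over all genes tested. Their median size of change, also without it, was 0.30 on the log2 scale, against 0.38 over all genes.

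Total counts ran from 13616694 to 16934668 per library. ITGAV, the gene of the overexpressed fragment, had 1310 to 1956 counts in NC libraries and 5180 to 7846 in OE CD51 ICD libraries. Reads of the construct and of the endogenous transcript cannot be told apart in these counts. Of 10 RPE markers 6 were tested, of which RLBP1 and PMEL were higher (log2 0.81 and 0.80) and MITF was lower (-0.56). OTX2 and the keratins KRT8 and KRT18 did not pass, the keratins with means of 3717 ± 189 and 1538 ± 68.8 CPM in NC and 3461 ± 237 and 1444 ± 143 CPM in OE CD51 ICD. The visual cycle gene RPE65 and the factor gene CRX were at 0 in all 6 libraries, and BEST1 and TYRP1 were too low to test. Of 10 leukocyte and microglia markers, CSF1R was the exception that rose (3.60 ± 0.894 to 32.9 ± 3.34 CPM). The other 9, the pan-leukocyte gene PTPRC among them, summed to 0.472 to 0.611 CPM in NC and 0.343 to 1.16 CPM in OE CD51 ICD. T and NK cell markers, with 4 of 5 at 0 in all libraries, summed to at most 0.177 CPM. These sums were scaled by total count alone, unlike the CPM of single genes, which also use TMM scaling factors.

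Promoter letters that match interferon and NF-kB elements are shown first. Whether they bear on the changes was not tested. In the RefSeq table (GRCh38.p14), 8 of the 9 members had a start site. The 250 bases before each start were searched on both strands for the interferon-stimulated response element (ISRE, read here as GAAA, any pair of bases and GAAA again), for the NF-kB consensus, and for CCAAT. Of 35116 promoters of that length, 3.02% held the ISRE letters, 9.96% the NF-kB consensus and 32% CCAAT. In the 30-base stretches below, capitals mark the ISRE letters, which lie forward or reversed and overlap where 2 copies are present:
TAP1: cggccgcTTTCGATTTCGCTTTCccctaaa
TAP2: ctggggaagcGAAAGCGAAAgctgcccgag
TAPBP: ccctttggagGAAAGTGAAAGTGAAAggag
B2M: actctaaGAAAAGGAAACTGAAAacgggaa
ERAP2: tcttagaacaGAAAGTGAAAgcaaaagtaa

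These stretches lie at chr6:32853816-32853845 (minus strand) for TAP1, chr6:32838778-32838807 (minus) for TAP2, chr6:33314079-33314108 (minus) for TAPBP, chr15:44711366-44711395 (plus) for B2M and chr5:96876460-96876489 (plus) for ERAP2, the last before the second of 2 listed starts. The matched letters began 134, 58, 20, 144 and 30 bases before the start in that order. Those of B2M lay outside any exon annotated in GENCODE 29, and the other 4 stretches lay within an exon of some annotated transcript. Among these 5 genes, TAP1 and TAP2 fell, ERAP2 rose, and TAPBP and B2M did not pass. In the heavy chain genes HLA-B and HLA-C no ISRE letters matched, but both held the NF-kB consensus at nearly the same distance, 177 and 172 bases before the start, here in capitals:
HLA-B: gcgcagcgttGGGGATTCCCCactcccctg
HLA-C: cgccgcgttgGGGATTCTCCactcccctga

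The HLA-B stretch lies at chr6:31357337-31357366 and that of HLA-C at chr6:31272245-31272274, both on the minus strand. TAP1, TAPBP, B2M and ERAP1 also held 1 match to this consensus each. CCAAT matched 3 times in HLA-B, 4 times in HLA-C and once each in B2M, TAP1 and ERAP1. It did not match in TAP2, TAPBP or ERAP2. Other motifs that were searched are not reported here. A match describes letters in this window and does not show that a factor binds there.

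Heavy chains present the peptide. HLA-C (ENSG00000204525, chromosome 6, 31268749 to 31272130, GRCh38) is a classical molecule that also serves as a ligand of killer cell receptors. It stood at 477, 489 and 480 CPM in NC and at 528, 492 and 532 CPM in OE CD51 ICD (CPM, the count scaled to the library's size with TMM factors). The OE CD51 ICD libraries all lay above the NC libraries, replicate 2 by little. The difference was 7.23% (log2 0.10 ± 0.08 SE, 95% interval -0.05 to 0.26) and did not pass (adjusted p = 0.277).

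HLA-B (ENSG00000234745, chromosome 6, 31269491 to 31357188), a second classical heavy chain gene, stood at 430, 426 and 394 CPM in NC and 445, 436 and 451 CPM in OE CD51 ICD. Here too the groups did not overlap, by a narrow gap. The log2 difference was 0.09 ± 0.08 SE (95% interval -0.06 to 0.25, adjusted p = 0.321). The annotated span of HLA-B reaches over 2640 bases of HLA-C on the same strand. Of the 50-base windows of the principal transcript, 2.54% for HLA-B, 6.79% for HLA-C and 5.13% for HLA-E occur in a transcript of another gene. How reads shared between genes were counted is not given in the sources used here, and the GENCODE sequences are reference alleles, not those of this line.

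HLA-E (ENSG00000204592, chromosome 6, 30489467 to 30494205) encodes a conserved nonclassical heavy chain that carries signal peptides of other class I chains and is read by the NK receptor CD94-NKG2A. It was the heavy chain gene that fell. Its levels were 313, 301 and 329 CPM in NC and 254, 234 and 278 CPM in OE CD51 ICD, and the lowest NC library stood above the highest OE CD51 ICD library. The fall was 1.23-fold (log2 -0.30 ± 0.08 SE, adjusted p = 0.00256). It held in 19 of 20 alternatives, with adjusted p from 2.08e-04 to 0.0504. Within each library, the ratio of HLA-E to HLA-B on the FPKM scale (the deposited per-length values) was 0.747, 0.725 and 0.857 in NC and 0.585, 0.550 and 0.631 in OE CD51 ICD. A ratio within a library carries no scaling between libraries. Its size rests on the gene lengths in the table.

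B2M (ENSG00000166710, chromosome 15, 44711487 to 44718877), the shared light chain without which most heavy chains do not reach the surface, stood at 216, 238 and 178 CPM in NC and 208, 215 and 196 CPM in OE CD51 ICD. The groups overlapped and the NC libraries spanned the wider range. The log2 difference was -0.03 ± 0.09 SE (95% interval -0.21 to 0.15, adjusted p = 0.793). The summed FPKM of HLA-B, HLA-C and HLA-E was 11.1 to 14.7 times that of B2M in NC and 11.8 to 14.1 times in OE CD51 ICD. That ratio rests on the gene lengths in the table. The deposited length of B2M is 6079 bases. GENCODE 29 lists 15 transcripts of this gene, and its principal transcripts hold 943 to 1705 bases. How the deposited length was built was not checked.

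**Figure D1:**
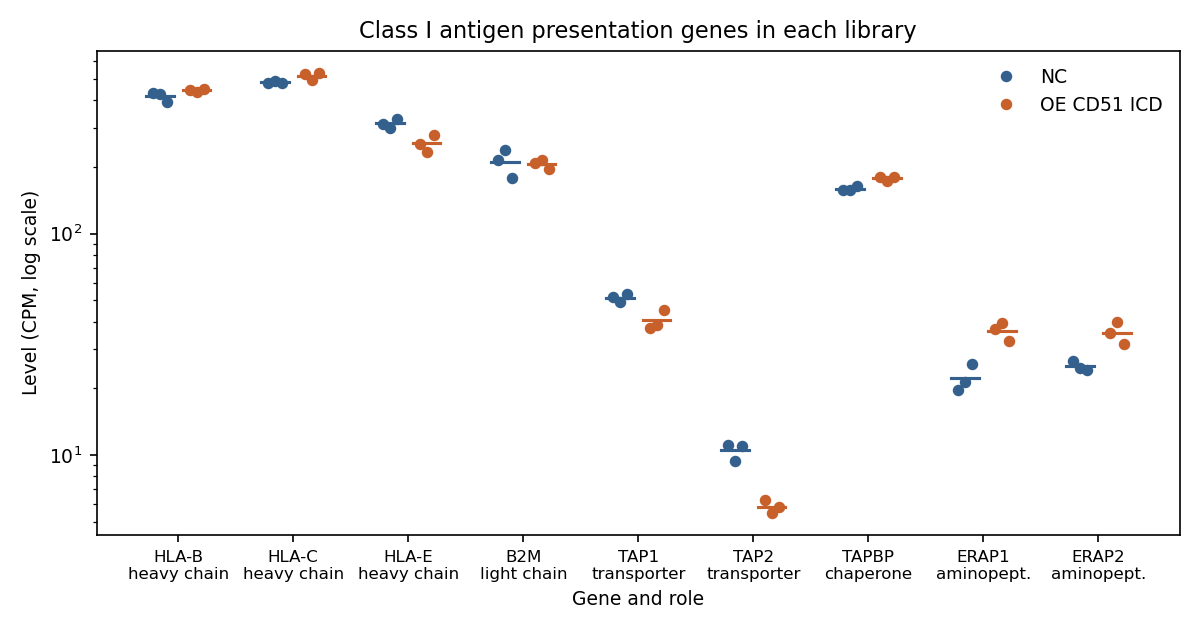
Level of each of the 9 genes in CPM on a log axis, with 1 point per library, NC in blue and OE CD51 ICD in orange, and a line at each group's mean. TAP2 points separate most clearly downward and ERAP1 and ERAP2 points upward, while those of B2M overlap.

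The transporter moves peptides from the cytosol into the ER, and both of its subunits are needed. TAP2 (ENSG00000204267, chromosome 6, 32821833 to 32838780) showed the largest change of the 9 genes here and in 17 of 20 alternatives. The exceptions, where ERAP1 changed more, were the fit without NC replicate 3 (0.83 against -0.82 on the log2 scale) and both fits of log2(FPKM + 1) (0.55 against -0.47). TAP2 stood at 11.05, 9.42 and 11.02 CPM in NC and 6.25, 5.47 and 5.79 CPM in OE CD51 ICD. Each OE CD51 ICD library lay well below each NC library. The fall was 1.80-fold (log2 -0.85 ± 0.17 SE, adjusted p = 1.24e-04), and the call held under all 20 alternatives run, with log2 values of -0.92 to -0.47. Of 50-base windows of the TAP2 principal transcript, 80.2% also occur in transcripts of another gene. AL669918.1, a gene model that covers the whole of TAP2 on the same strand, had 0 counts in all 6 libraries. The level of TAP2 may therefore depend on how shared reads were assigned, which was not tested.

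TAP1 (ENSG00000168394, chromosome 6, 32845209 to 32853978), its partner, stood at 51.5, 49.0 and 53.1 CPM in NC and 37.5, 38.8 and 45.2 CPM in OE CD51 ICD. The groups did not overlap, and OE CD51 ICD replicate 3 was nearest to NC. The fall was 1.27-fold (log2 -0.34 ± 0.10 SE, adjusted p = 0.00536). The call was lost without OE CD51 ICD replicate 1 (log2 -0.28, adjusted p = 0.0731) and with the GC trend removed (log2 -0.17, adjusted p = 0.0947), over a range of 5.55e-04 to 0.0947 in its 20 alternatives. TAP1 lies within PSMB9, which is on the other strand, and without a stated strand rule their reads cannot be told apart where exons overlap. The FPKM of TAP1 was 6.20, 6.92 and 6.40 times that of TAP2 in NC libraries and 7.98, 9.43 and 10.4 times in OE CD51 ICD libraries. The size of these ratios rests on the deposited gene lengths. With the principal transcripts' lengths, TAP1 and TAP2 would have mean FPKM of 17.2 and 4.17 in NC and 13.5 and 2.31 in OE CD51 ICD.

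Tapasin holds the empty heavy chain at the transporter and favours tightly bound peptides. Its gene TAPBP (ENSG00000231925, chromosome 6, 33299694 to 33314387) stood at 158, 157 and 164 CPM in NC and 180, 173 and 181 CPM in OE CD51 ICD. All OE CD51 ICD libraries were above all NC libraries. The difference of 11.3% did not pass (log2 0.15 ± 0.08 SE, 95% interval -0.00 to 0.31, adjusted p = 0.0990). It passed with upper-quartile scaling (log2 0.20, adjusted p = 0.0292) and with the GC trend removed (log2 0.33, adjusted p = 8.67e-05), over a range of 8.67e-05 to 0.259 in its alternatives.

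The aminopeptidases cut peptides from their N-terminal end to the length that class I grooves hold. ERAP1 (ENSG00000164307, chromosome 5, 96760810 to 96808100) had the largest rise of the 9 genes, here and in all 20 alternatives. It stood at 19.6, 21.4 and 25.6 CPM in NC and 37.2, 39.5 and 32.7 CPM in OE CD51 ICD, with a clear gap between the groups. The rise was 1.65-fold (log2 0.72 ± 0.12 SE, adjusted p = 8.73e-06). ERAP1 overlaps 18786 bases of CAST, the calpastatin gene, on the other strand, and CAST itself rose by 0.63 on the log2 scale.

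ERAP2 (ENSG00000164308, chromosome 5, 96875939 to 96919716), the related enzyme with another preference for N-terminal residues, stood at 26.7, 24.6 and 24.3 CPM in NC and 35.4, 39.6 and 31.6 CPM in OE CD51 ICD. The groups did not overlap. The rise was 1.41-fold (log2 0.50 ± 0.11 SE, adjusted p = 4.92e-04). Both aminopeptidase calls held under all 20 alternatives, with log2 values of 0.52 to 0.83 for ERAP1 and 0.31 to 0.58 for ERAP2. The summed FPKM of ERAP1 and ERAP2 was 0.486, 0.515 and 0.509 times that of TAP1 and TAP2 in NC, and 1.07, 1.16 and 0.812 times in OE CD51 ICD. In every OE CD51 ICD library the trimming enzymes thus stood higher against the transporter than in any NC library. The size of these ratios also rests on the deposited gene lengths.

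**Figure D2:**
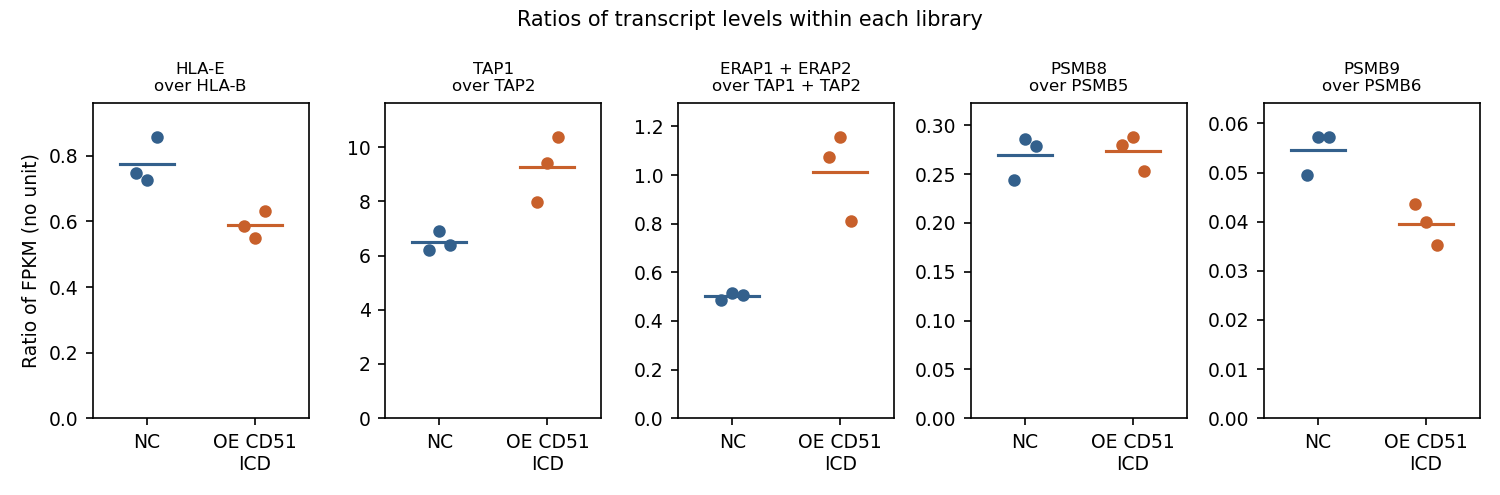
Ratios of FPKM within each library, with 1 point per library, lines at group means and axes that start at 0. HLA-E over HLA-B and PSMB9 over PSMB6 are lower in OE CD51 ICD, TAP1 over TAP2 and the aminopeptidases over the transporter are higher, and PSMB8 over PSMB5 overlaps.

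Across the 9 genes, groups did not overlap for 8 (5 higher, 3 lower), where 57.5% of all genes had no overlap (28% higher, 29.5% lower). In order of deposited FPKM, the levels in NC were HLA-C (191 ± 2.60, mean ± SD, n = 3), HLA-B (135 ± 5.95), HLA-E (105 ± 5.0), B2M (34.4 ± 4.89), TAPBP (31.4 ± 0.866), TAP1 (10.6 ± 0.449), ERAP2 (3.37 ± 0.164), ERAP1 (2.77 ± 0.399) and TAP2 (1.63 ± 0.147). The ranges of B2M and TAPBP overlapped and those of other neighbours did not. In OE CD51 ICD the order was the same but for TAPBP (34.7 ± 1.29) and B2M (33.5 ± 1.18), which overlapped, and ERAP2 and ERAP1 overlapped as well (4.73 ± 0.475 and 4.53 ± 0.380). With the principal transcript's length in place of the deposited one, B2M in NC would stand at an FPKM of 123 to 222. HLA-E would stand at 120 and HLA-B at 267. ERAP2, TAP2 and ERAP1 would stand at 4.38 ± 0.213, 4.17 ± 0.375 and 4.01 ± 0.577, so TAP2 would no longer be the lowest. The order above thus depends on the lengths used.

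The calls of HLA-B, HLA-C, B2M, TAPBP and TAP1 changed when a GC trend was removed. The longest transcripts of HLA-B, HLA-C, TAPBP and TAP1 have 57.5% to 62.7% GC and those of B2M, ERAP1 and ERAP2 39.7% to 40.6%, where the median over tested genes is 48.6%. With each library's GC trend removed, HLA-B and HLA-C were higher (log2 0.29 and 0.34, adjusted p = 6.76e-04 and 4.78e-05) and B2M was lower (log2 -0.21, adjusted p = 0.0222). The members then counted 5 higher and 3 lower, where 24.9% of all genes were higher and 25.1% lower. Removal of a trend with gene length also put HLA-B and HLA-C past the threshold (log2 0.21 and 0.24, adjusted p = 0.0228 and 0.00813), which gave 4 members higher and 3 lower, where 49.8% of all genes were called, 24.3% higher and 25.5% lower. Over their alternatives, adjusted p ran from 6.76e-04 to 0.737 for HLA-B, 4.78e-05 to 0.650 for HLA-C and 0.0222 to 0.933 for B2M. HLA-E, TAP2, ERAP1 and ERAP2 passed in these 2 alternatives with the direction given above.

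**Figure D3:**
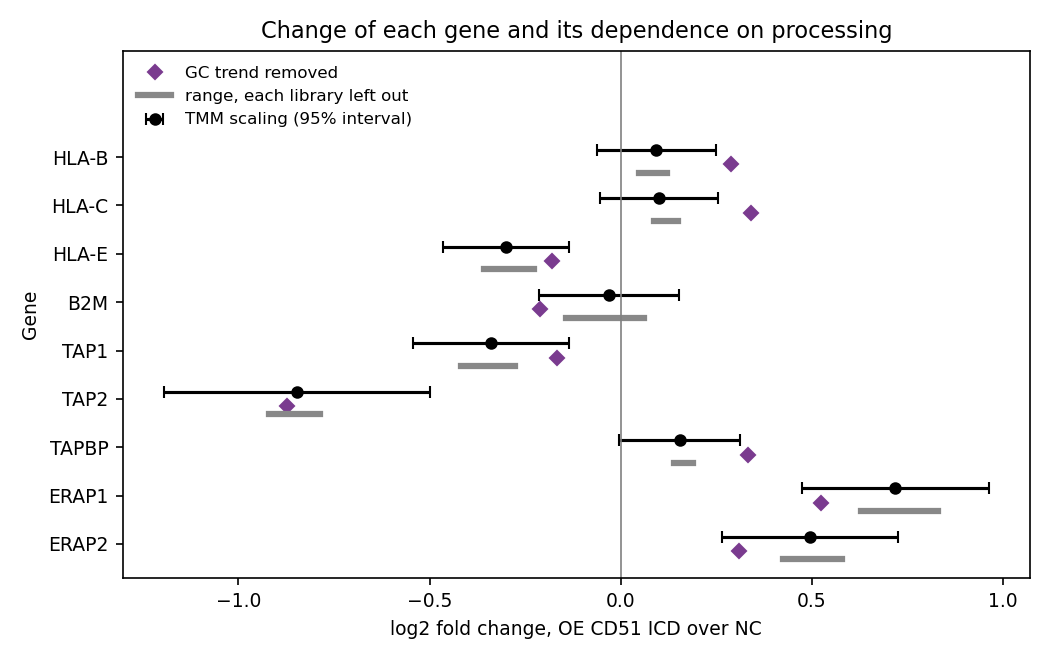
Log2 fold change of each gene, OE CD51 ICD over NC, with its 95% interval (black), its value with the GC trend removed (purple) and its range when each library was left out in turn (grey). HLA-E, TAP1, TAP2, ERAP1 and ERAP2 stay on 1 side of 0 in all 3, and HLA-B, HLA-C and TAPBP move to higher values when the GC trend is removed.

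Several members lie beside other called genes. TAP2, PSMB8, PSMB9 and TAP1 lie together on chromosome 6 between 32821833 and 32859585, and all 4 fell. The other tested gene in that stretch, PSMB8-AS1, was at 0.668 ± 0.169 and 0.783 ± 0.279 CPM and did not pass. On chromosome 5, CAST, ERAP1, ERAP2 and LNPEP lie side by side between 96525267 and 97037515, and all 4 rose. The other tested gene there, AC009126.1, which lies antisense to ERAP2, was at 0.767 ± 0.376 and 0.725 ± 0.296 CPM and did not pass (adjusted p = 0.895). These stretches were chosen with the members' values known. TAP1 and PSMB9 overlap, as do ERAP1 and CAST, and without a stated strand rule reads of overlapping exons cannot be told apart. In the span of chromosome 6 from HLA-E to TAPBP, 82 genes entered the test, and 8 rose and 39 fell (57.3% called). Over all tested genes 51% were called, 25.2% higher and 25.8% lower. With the GC trend removed, 12 rose and 31 fell in this span, where 24.9% of all genes were higher and 25.1% lower.

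Peptide loading in the ER also needs general chaperones. Of 7 loading partners, 5 were higher and 1 lower, where 25.2% of all tested genes were higher and 25.8% lower. The median log2 fold change of these 7 was 0.75. CALR (calreticulin), a lectin chaperone of the loading complex, rose from 1393 ± 23.9 to 2660 ± 117 CPM (log2 0.93 ± 0.08 SE, adjusted p = 1.66e-11). PDIA3, which encodes ERp57, the thiol oxidoreductase bound to tapasin, rose from 168 ± 2.51 to 353 ± 18.2 CPM. CANX (calnexin), which holds new heavy chains, and UGGT1, the folding sensor that returns glycoproteins to calreticulin, rose by 0.78 and 0.75 on the log2 scale. GANAB, a subunit of glucosidase II, rose by 0.24 (adjusted p = 0.00995), a call lost without NC replicate 1, NC replicate 2 or OE CD51 ICD replicate 1 (adjusted p = 0.0584, 0.0834 and 0.0610) and in the unfiltered limma fit of log2(FPKM + 1) (0.0849). BCAP31, an ER export receptor that carries class I molecules, fell from 337 ± 22.4 to 244 ± 21.5 CPM. TAPBPL, the tapasin homologue TAPBPR that edits peptides, was at 14.1 ± 1.84 and 15.4 ± 0.623 CPM and did not pass (adjusted p = 0.474), except with the GC trend removed (log2 0.31, adjusted p = 0.0476).

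Proteasomes supply the peptides. Of 9 proteasome genes, 6 were lower and none was higher, where 25.8% of all tested genes were lower and 25.2% higher. All 9 had a negative log2 fold change, with a median of -0.32. The immunoproteasome subunits that interferon gamma induces, PSMB8 and PSMB9, fell from 73.8 ± 3.97 to 53.2 ± 1.88 CPM and from 14.4 ± 0.743 to 9.18 ± 0.787 CPM (adjusted p = 6.00e-05 and 7.08e-04). PSMB10, the third, was at 7.82 ± 0.836 and 6.28 ± 1.2 CPM and did not pass (adjusted p = 0.156). Of the standard catalytic subunits they replace, PSMB5 fell from 162 ± 11.3 to 115 ± 12.2 CPM and PSMB7 from 202 ± 8.29 to 174 ± 12.2 CPM, and PSMB6 was at 124 ± 9.08 and 109 ± 4.95 CPM and did not pass. The FPKM ratio of PSMB8 to PSMB5 was 0.270 ± 0.0227 in NC and 0.274 ± 0.0184 in OE CD51 ICD, and that of PSMB9 to PSMB6 was 0.0546 ± 0.00446 and 0.0396 ± 0.00412. The ratio of PSMB10 to PSMB7 was 0.0373 ± 0.00259 and 0.0348 ± 0.00576. The groups were apart for PSMB9 over PSMB6 and overlapped for the other pairs.

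The proteasome activators PSME1 and PSME3 fell by 0.31 and 0.42 on the log2 scale, and PSME2 was at 55.5 ± 0.657 and 47.8 ± 5.18 CPM and did not pass (adjusted p = 0.0626). The PSMB7 call (adjusted p = 0.0239) was lost in 8 of 20 alternatives, among them without NC replicate 1 or 3 and without OE CD51 ICD replicate 1 or 2 (adjusted p = 0.0916, 0.0502, 0.192 and 0.0861). PSMB6 passed without NC replicate 3 or OE CD51 ICD replicate 3 (adjusted p = 0.0279 and 0.0300), and PSME2 without OE CD51 ICD replicate 3 (0.0132). PSMB6 and PSME2 also passed when scaled by library size alone (0.0113 and 0.0139), and PSME1 was lost with the length trend removed (log2 -0.18, adjusted p = 0.0526).

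Of 7 cytosolic and endosomal peptidase genes, 3 were higher and 1 lower, where 25.2% of all tested genes were higher and 25.8% lower. THOP1, thimet oligopeptidase, a cytosolic enzyme that destroys many class I peptides, fell 2.15-fold from 207 ± 17.1 to 96.2 ± 16.7 CPM (adjusted p = 8.61e-11). NRDC, nardilysin, which can cut precursors of class I peptides, rose from 50.5 ± 5.99 to 65.2 ± 3.14 CPM (adjusted p = 0.00211). LNPEP, the endosomal aminopeptidase IRAP, and NPEPPS, a cytosolic aminopeptidase, rose by 0.37 and 0.21 (adjusted p = 0.0159 and 0.0314), and these 2 calls were lost in 8 and 11 of 20 alternatives. Both were lost without NC replicate 2 (adjusted p = 0.107 and 0.130) and OE CD51 ICD replicate 2 (0.0717 and 0.0687), and NPEPPS also without NC replicate 1 (0.0948) and OE CD51 ICD replicate 1 (0.132).

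Of 13 genes for factors that act on class I promoters, 2 were higher and 2 lower. Over all tested genes, 25.2% were higher and 25.8% lower. NLRC5, the class I transactivator, was at 23.9 ± 1.16 and 24.7 ± 0.412 CPM and did not pass (log2 0.05 ± 0.11 SE, 95% interval -0.18 to 0.28, adjusted p = 0.739). It was past the threshold only with the GC trend removed (log2 0.23, adjusted p = 0.0496), and its sign changed when scaled by library size alone or with the length trend removed. Its partners RFXANK and NFYB fell from 47.3 to 38.1 and from 16.1 to 8.01 CPM (adjusted p = 0.00989 and 1.70e-05). RFXANK did not pass without OE CD51 ICD replicate 2 (adjusted p = 0.0696) or with the GC or length trend removed (0.330 and 0.124). CREB1, which binds the X2 box, rose from 9.02 ± 2.02 to 15.1 ± 3.53 CPM with groups that overlapped, and RELA, an NF-kB subunit, from 166 ± 5.87 to 196 ± 15.5 CPM (adjusted p = 9.96e-04 and 0.0135). The RELA call was lost without NC replicate 2 (adjusted p = 0.0861), and both calls were lost in the unfiltered limma fit of log2(FPKM + 1) (adjusted p = 0.112 for CREB1 and 0.0847 for RELA).

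Among 12 genes for interferon receptors and their signalling, 10 entered the test, with 2 higher and 3 lower. The shares over all tested genes were 25.2% higher and 25.8% lower. IFNGR1 and IFNGR2, the interferon gamma receptor chains, were at 15.2 ± 2.04 and 24.1 ± 0.962 CPM in NC and 13.1 ± 3.90 and 21.5 ± 2.81 CPM in OE CD51 ICD, and neither passed. IFNGR1 passed without OE CD51 ICD replicate 2 and with the GC trend removed (adjusted p = 0.0184 and 0.0317). SOCS3, a feedback inhibitor of cytokine receptors, fell from 15.4 ± 2.48 to 5.81 ± 1.47 CPM, and the kinase gene TYK2 by 0.48 on the log2 scale. STAT2 fell by 0.26, while JAK1 and IRF9 rose by 0.29 and 0.84. These last 3 calls depended on single libraries: STAT2 was lost without NC replicate 3 or OE CD51 ICD replicate 1 (adjusted p = 0.0689 and 0.105), JAK1 without NC replicate 2 or OE CD51 ICD replicate 2 (0.0789 and 0.0664), and IRF9 without NC replicate 1, NC replicate 3 or OE CD51 ICD replicate 3 (0.0771, 0.0632 and 0.0507).

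Among 12 targets that interferon gamma induces, 8 entered the test, with 4 higher and 1 lower. Again, 25.2% of all tested genes were higher and 25.8% lower. GBP1, a guanylate-binding protein of host defence, rose from 9.98 ± 2.45 to 28.6 ± 1.91 CPM (log2 1.52 ± 0.15 SE, adjusted p = 7.29e-10), with GBP2 and GBP3 up by 0.80 and 0.98. The GBP2 call was lost in the unfiltered FPKM fit (adjusted p = 0.125). The fourth was GBP4, named after its values were seen. The chemokine genes CXCL9, CXCL10 and CXCL11 had no count in any library.

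Of 10 genes of the class II pathway, which presents peptides to CD4 T cells, 3 were tested. Of these, 1 was lower and 2 did not pass, where 25.8% of all tested genes were lower. CIITA, the class II transactivator, fell from 2.92 ± 0.570 to 0.929 ± 0.284 CPM (adjusted p = 1.16e-04). It had 32 to 55 counts per NC library and 10 to 19 per OE CD51 ICD library. CIITA is also 1 of the interferon gamma targets above, and limma on log2(FPKM + 1) did not call it (adjusted p = 0.0522). The alpha chain gene HLA-DRA had 6 counts in NC and 1 in OE CD51 ICD, summed over each group, and was not tested.

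Of 12 class I-like genes and NK cell ligands, 7 were tested and 1 was lower, where 25.8% of all tested genes were lower. FCGRT, the heavy chain of the neonatal Fc receptor, which also pairs with B2M, fell from 88.4 ± 1.86 to 72.9 ± 5.90 CPM (adjusted p = 0.00867). The call was lost without OE CD51 ICD replicate 1 or 2 (adjusted p = 0.0719 and 0.0573) and with the GC trend removed (0.636).

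Of 6 genes linked to class I turnover, 3 were higher and 2 lower, where 25.2% of all tested genes were higher and 25.8% lower. MARCH4, a membrane ubiquitin ligase that can remove class I from the surface, rose 1.99-fold from 95.3 ± 2.07 to 190 ± 23.4 CPM (adjusted p = 8.24e-11). SUSD6, which with TMEM127 and the ligase WWP2 sends class I to lysosomes, rose from 17.5 ± 3.21 to 28.8 ± 0.917 CPM. WWP2 fell by 0.39 on the log2 scale and TMEM127 rose by 0.22. MARCH9, a related ligase, fell by 0.28. The TMEM127 and MARCH9 calls (adjusted p = 0.0306 and 0.0202) were lost without OE CD51 ICD replicate 1 (0.125 and 0.110). TMEM127 was lost in 8 of 20 alternatives: without NC replicate 1 or 2 as well (0.114 and 0.181), with library size only (0.0876), without the low-count filter (0.0760) and in the 3 FPKM fits (0.0545 to 0.0883). MARCH9 was lost without NC replicate 3, without OE CD51 ICD replicate 2, and with the GC or length trend removed too (0.0768, 0.0534, 0.418 and 0.0612).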

How the data were processed

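The authors deposited whole-number gene counts and FPKM values for 6 ARPE-19 libraries. Per the labels' protocols, RNA was taken with 1 of 2 kits, not said which for which library, and a SMARTER mRNA kit was used for the libraries. The build hg38 is named in the submitters' processing notes. Aligner, counter and use of strand: not given in the sources used here. The deposited FPKM are the counts over gene length and 1 constant per library. The members and gene lists were chosen with earlier results of these data known.

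Counts were tested with edgeR 4.0.16 (R 4.3.3): filterByExpr, TMM, glmQLFit and glmQLFTest, OE CD51 ICD against NC, two-sided, Benjamini-Hochberg over 13787 genes, called at 0.05. The standard error was derived from the F statistic. The test was tried on simulated counts. Named were the members, ITGAV, the loading and proteasome lists, the receptors IFNGR1 and IFNGR2, NLRC5, and up to 3 called genes per direction of each other list with a mean of at least 1 CPM. A list gene that is counted but neither named nor plotted is not reported here. The cell type lists covered RPE, leukocyte and microglia, T and NK cell, endothelial and fibroblast markers. Endothelial markers summed to at most 1.43 CPM, scaled by total count alone. Of 5 fibroblast markers PDGFRB was the 1 tested, at 223 ± 13.2 and 389 ± 21.9 CPM. Alternatives were other scalings, DESeq2 1.42.0, limma 3.58.1 on voom values and on log2(FPKM + 1) or log2(FPKM + 0.1), other filters, each library left out, and the replicate number as a block. GC and length trend removal were added after seeing the data. Windows and exons came from GENCODE 29.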

Additional observations from a re-analysis of the deposited data

How the results depend on the processing

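Of 180 values of the 9 genes under 20 alternatives each, 167 kept their direction and their side of the threshold. The exceptions by setting were as follows, and the cause was not tested. With the GC trend removed, HLA-B, HLA-C, TAPBP and B2M passed (log2 0.29, 0.34, 0.33 and -0.21), TAP1 did not (-0.17), and 5 members were higher (24.9% of all genes). With the length trend removed, HLA-B and HLA-C passed (0.21 and 0.24), and 4 members were higher (24.3% of all genes). With upper-quartile scaling TAPBP passed (0.20) and B2M, not called, turned to 0.0140. HLA-E missed in the unfiltered limma fit of log2(FPKM + 1) (log2 -0.31, adjusted p = 0.0504). With a library left out, TAP1 ran from -0.42 to -0.28 and was lost without OE CD51 ICD replicate 1. B2M ran from -0.14 to 0.0614, with a positive sign without NC replicate 2 (0.0614) and OE CD51 ICD replicate 3 (0.0104). NLRC5 was at -0.0136 with library size only and -0.15 with the length trend removed.

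Counts of called genes over all genes ran from 3007 to 3641 higher and 2936 to 3654 lower with a library left out. List counts that moved by more than 1.5 times were small. Transcription factors had 0 higher in that unfiltered fit, 1 lower with the length trend removed and 1 to 2 lower with a library left out. Turnover genes had 1 lower with the GC or length trend removed and 1 to 2 with a library left out. Class I-like genes had 0 lower with the GC trend removed and 0 to 1 with a library left out. Peptidases had 1 higher with library size only, in the 3 FPKM fits and with the GC or length trend removed, and 1 to 3 with a library left out. Interferon targets had 0 lower in limma on log2(FPKM + 1) and 2 with the GC trend removed. Interferon signalling genes had 0 higher in that unfiltered fit, 1 to 2 with a library left out and 5 lower with the GC trend removed. Class II genes had 2 lower with RLE scaling, with library size only, without the low-count filter and with the replicate block, 0 in limma on log2(FPKM + 1), and 1 to 2 with a library left out.

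Deviations of same-numbered libraries from their group means correlated at -0.08, 0.01 and 0.08 across genes, and those of other pairs at -0.11 to 0.11. With 3 libraries per group, these values cannot decide whether the numbers mark a pairing. With the replicate block, 3437 genes were higher and 3552 lower against 3469 and 3559 without it, and all 9 members kept their direction and call (TAP2 at -0.84, ERAP1 at 0.72). Not every library correlated best with its own number.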
